A study of Mus musculus with 2 samples.

Results

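The 50 genes described here mark the path from a blood stem cell to a lymphocyte. They cover priming factors and early lymphoid genes (9), E proteins and their Id inhibitors (6), B lineage genes (10), T lineage genes (12), NK and innate lymphoid genes (7), the Batf family (3), and plasma cell and dendritic cell genes (3). They were chosen by name and role, each had 1 row in both files, and they are 50 of 23961 gene symbols with a value. RNA was sequenced from haematopoietic stem cells sorted from bone marrow of untreated C57BL/6 mice kept under a 12:12 light/dark cycle, with 1 library labelled Per2def (Per2-deficient) and 1 library labelled Per2wt (wild type). The labels do not name the Per2 allele, the sort markers, the time of collection, or how many animals gave each library. Values are FPKM, numbers of fragments divided by transcript length and by the mapped fragments of the library. Comparisons between libraries depend on this scaling, and some small differences below changed sign under another scaling. Each genotype has 1 library, which leaves no spread between replicates and no test, so every difference is between these libraries and has no replicate check.

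Per2, which encodes a repressor of the circadian clock, stood at 6.16 FPKM in the library labelled Per2def and at 1.96 FPKM in the library labelled Per2wt, a ratio of 3.13. This goes against loss of the transcript. Labels exchanged between the libraries and an allele that still gives RNA cannot be told apart here, and an exchange would turn every direction below, so directions are between libraries as labelled. Both libraries held stem and progenitor RNA. Of 14 such markers 7 were higher and 7 lower in the library labelled Per2def (5 and 9 when scaled by the median of ratios). Of the 11 that reached 1 FPKM, 4 were higher and 7 lower there (3 and 8 with that scaling). Among all genes at that level 62.0% were higher (50.8% with that scaling). The remaining markers were under 1 FPKM in both libraries and, before that scaling, higher in the library labelled Per2def. Sums over the 14 were 284 FPKM in the library labelled Per2def and 289 FPKM in the library labelled Per2wt. The most abundant, Cd34, was at 83.9 FPKM in the library labelled Per2def and 90.5 FPKM in the library labelled Per2wt, and the widest differences in log2(FPKM + 1), Per2def minus Per2wt, at 1 FPKM or more were 0.47 for Cd48 and, for the stem cell regulators, −0.34 for Hlf and −0.27 for Gata2. Slamf1, the gene of the stem cell surface protein CD150, was under 1 FPKM, at 0.522 FPKM in the library labelled Per2def and 0.245 FPKM in the library labelled Per2wt. Low values fell on steps that matched whole fragments, and these steps put the depth at an estimated 28400000 fragments in the library labelled Per2def and 22700000 in the library labelled Per2wt. Fragment numbers below are estimates from those steps and from transcript lengths. The 95% counting intervals of FPKM ratios made from them are exact binomial intervals that cover counting error only, not differences between mice.

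Lymphoid priming is the low, early expression of lymphoid genes in multipotent progenitors that have not yet committed to a lineage. Ikaros family factors and the E proteins open this programme, Id proteins hold E proteins off DNA, and the genes of antigen receptors and their signalling chains come on later, in committed B and T cells. Batf encodes a small AP-1 family factor that, in mice, has been described as limiting lymphoid-competent stem cells after DNA damage, and Per2 has been proposed to act in the same kind of brake. The comparison asks whether lymphoid genes differ between the genotypes.

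Promoters of 5 members are shown as examples. Igj had the widest difference of all members on the log2(FPKM + 1) scale, and Cd3g the widest ratio at 1 FPKM or more. Batf is the proposed brake. Zbtb46 and Siglech, higher in the library labelled Per2def, were picked partly because they hold an AP-1 or a clock motif. These matches therefore tie neither motif to a difference, and the counting interval of the Siglech ratio held 1. Each runs 5′ to 3′ from 250 bases before to 50 bases after a transcript start in RefSeq (GRCm38.p6). The intervals are chr5:88527848-88528147 (minus strand) for Igj, chr9:44980382-44980681 (minus) for Cd3g, chr2:181424339-181424638 (minus) for Zbtb46, chr7:55767934-55768233 (plus) for Siglech and chr12:85686470-85686769 (plus) for Batf. The Zbtb46 window lies inside the gene, which runs from 181387762 to 181459426, and not at the gene's outer start. Capitals mark matches to 4 motifs on either strand: the clock E-box CACGTG, the AP-1 motif TGANTCA, and the E protein sites CAGCTG and CAGGTG, the last of which reads CACCTG on the other strand.
Igj: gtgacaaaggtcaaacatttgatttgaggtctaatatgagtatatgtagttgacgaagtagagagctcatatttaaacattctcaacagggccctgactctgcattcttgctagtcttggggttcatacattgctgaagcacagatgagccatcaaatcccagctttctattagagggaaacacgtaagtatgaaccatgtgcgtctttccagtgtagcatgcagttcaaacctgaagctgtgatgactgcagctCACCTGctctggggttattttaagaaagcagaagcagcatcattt
Cd3g: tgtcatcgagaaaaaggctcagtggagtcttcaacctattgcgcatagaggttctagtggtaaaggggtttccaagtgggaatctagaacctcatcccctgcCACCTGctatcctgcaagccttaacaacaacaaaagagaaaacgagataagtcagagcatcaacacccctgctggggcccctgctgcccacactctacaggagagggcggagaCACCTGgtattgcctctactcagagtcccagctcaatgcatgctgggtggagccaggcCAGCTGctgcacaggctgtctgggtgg
Zbtb46: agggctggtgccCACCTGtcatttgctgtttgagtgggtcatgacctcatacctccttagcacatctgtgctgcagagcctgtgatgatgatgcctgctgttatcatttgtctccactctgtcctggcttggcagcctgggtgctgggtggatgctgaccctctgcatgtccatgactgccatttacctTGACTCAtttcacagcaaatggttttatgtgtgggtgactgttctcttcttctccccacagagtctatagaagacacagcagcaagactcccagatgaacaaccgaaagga
Siglech: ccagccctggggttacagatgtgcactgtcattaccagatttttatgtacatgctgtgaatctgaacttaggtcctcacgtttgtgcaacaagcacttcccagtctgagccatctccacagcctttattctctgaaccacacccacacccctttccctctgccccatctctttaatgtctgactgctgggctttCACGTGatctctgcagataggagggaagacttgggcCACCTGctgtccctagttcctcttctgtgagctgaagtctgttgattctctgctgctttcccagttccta
Batf: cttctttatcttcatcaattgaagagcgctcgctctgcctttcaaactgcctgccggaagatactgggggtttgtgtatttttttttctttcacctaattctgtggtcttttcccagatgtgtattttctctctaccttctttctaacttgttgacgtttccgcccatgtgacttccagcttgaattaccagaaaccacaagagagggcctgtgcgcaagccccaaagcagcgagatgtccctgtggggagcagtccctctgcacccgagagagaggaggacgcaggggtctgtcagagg

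RefSeq promoters were found for 37 of the 50 genes, 49 promoters in all, since some genes have several starts. CACGTG was in 8.16% of them, in those of Batf3, Cd37, Lat and Siglech, and in 7.15% of all 32851 promoters in the table. TGANTCA was in 6.12%, in those of Gzmb, Tcf12 and Zbtb46, and in 7.81% of all promoters. The E protein sites were more frequent: CAGCTG was in 22.4% of the members' promoters and 16.3% of all promoters, and CAGGTG in 42.9% and 20.2%. CAGGTG was in promoters of 19 members. These were Blnk, Cd37, Cd3d, Cd3e, Cd3g, Cd79a, Foxp1, Igj, Igll1, Lck, Ltb, Prf1, Rag1, Satb1, Siglech, Tbx21, Tcf7, Vpreb1 and Zbtb46. A match of letters is a description and does not show binding. The Batf window held none of these letters, and the RefSeq table used here gave no promoter for Id1, Ikzf2, Ikzf3, Il2rb, Thy1 or Zbtb16, among others.

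Across the members, early lymphoid genes were abundant and nearly level between the libraries, while genes of more mature T, NK, plasma and dendritic cells were mostly low and mostly above their Per2wt-labelled levels in the library labelled Per2def. Of the 50 members, 30 reached 1 FPKM in at least 1 library and 27 in both. In the library labelled Per2def 24 of the 30 were higher and 6 lower, with a median log2 difference of 0.15, and 62.0% of all 11121 genes at that level were higher, with a median of 0.05. Differences are log2(FPKM + 1) in the library labelled Per2def minus that in the library labelled Per2wt. The added 1 makes differences of low genes look smaller than they are. The members just inside the limit were Il2rb, at 1.01 FPKM, and Cd4, at 1.07 FPKM, and just outside were Cd79a, at 0.780 FPKM, and Cd3d, at 0.758 FPKM, all in the library labelled Per2def. Cd3g, Cd4 and Il2rb reached 1 FPKM only in the library labelled Per2def, so their direction follows from the limit. Without them 21 of 27 were higher, with a median of 0.12, beside 61.6% of the 10460 genes at 1 FPKM or more in both libraries. When the library labelled Per2def was scaled by the median of ratios, 29 members were measured, 19 higher and 10 lower, with a median of 0.08, beside 50.8% of all genes higher. Counts that include genes under 1 FPKM have no share of all genes to be read against.

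**Figure D1:**
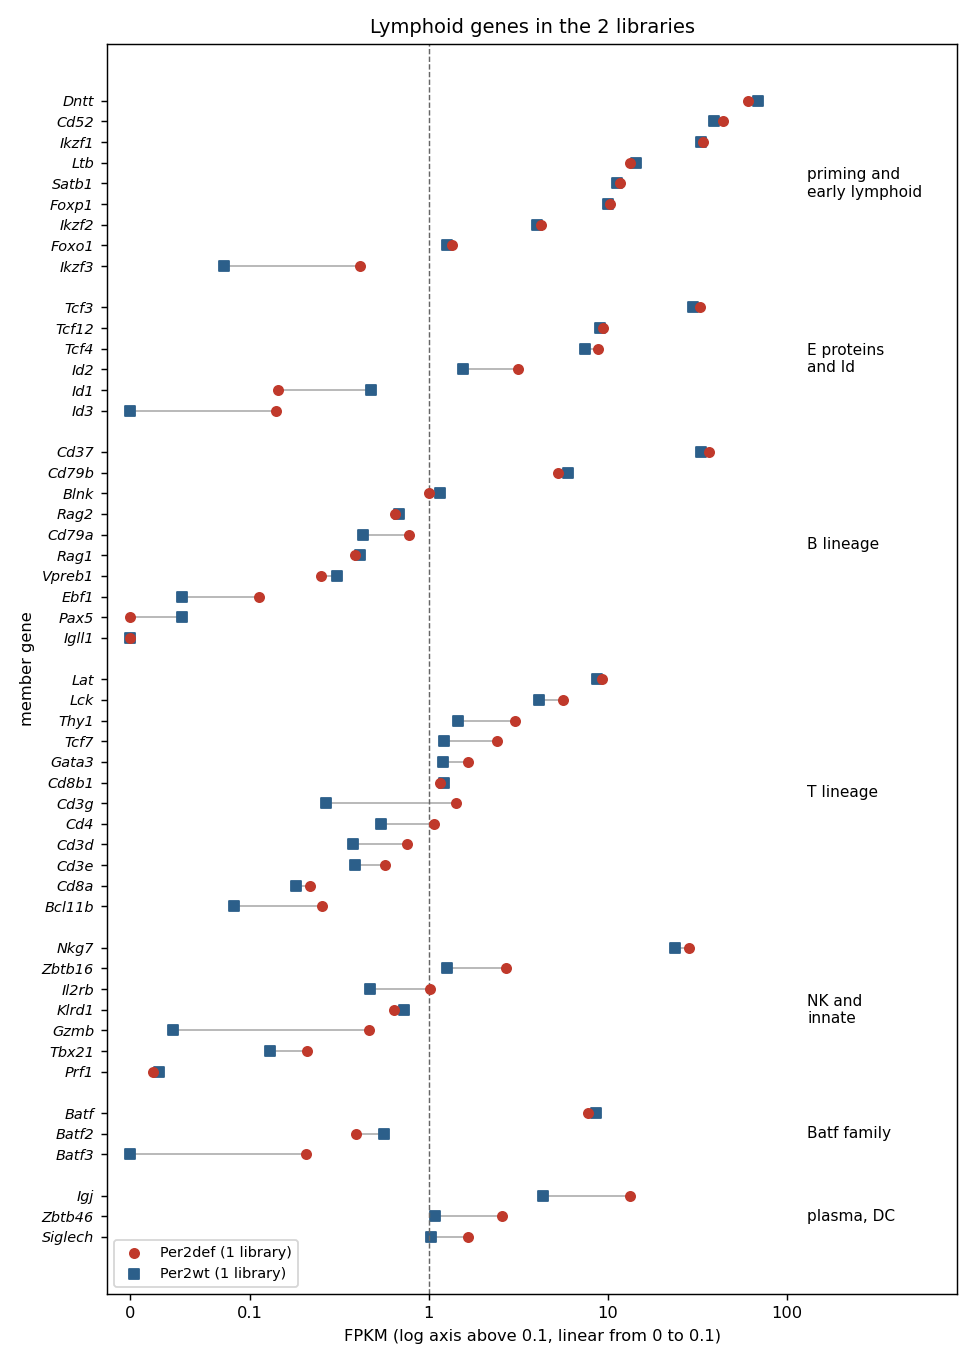
FPKM of the 50 lymphoid genes in the library labelled Per2def (red circles) and the library labelled Per2wt (blue squares), ordered by level within each role, on an axis that is logarithmic above 0.1 FPKM and linear below. The abundant genes at the top of each group, such as Dntt, Tcf3, Cd37, Lat and Nkg7, nearly coincide, and most of the wider gaps lie at low levels, with Igj at 13.3 and 4.32 FPKM as the exception.

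On the log2(FPKM + 1) scale the library labelled Per2def exceeded the library labelled Per2wt by 2-fold or more for 1 member, Igj, and no member was lower by that much. Among all genes at 1 FPKM or more, 1.25% were higher by 2-fold or more and 0.998% lower. By plain FPKM ratio, a measure added after the values were seen, 7 of the 30 members were at 2 or more and none at the inverse: Cd3g, Igj, Zbtb46, Il2rb, Zbtb16, Thy1 and Id2. That ratio was reached by 0.989% of 10312 protein-coding genes, and its inverse by 0.436%. Cd3g and Il2rb reached 1 FPKM only through the library labelled Per2def. Among the 27 members at 1 FPKM or more in both libraries 5 had that ratio, beside 0.404% of 9899 protein-coding genes. Counting intervals of the ratio lay above 1 for 15 of the 30 members, below 1 for 1 and spanned 1 for 14, beside 22.8% above and 10.1% below among 10261 protein-coding genes. Among the 27 members measured in both libraries 12 lay above 1, beside 22.2% of 9851 genes. With median of ratios scaling 13 of the 30 lay above 1, beside 15.3% of genes.

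The split went partly with level, with exceptions such as the more abundant Igj and the low but nearly level Foxo1 and Blnk. Level and role overlap in this list and were not separated. The 15 members with a mean of 5 FPKM or more had a median difference of 0.05, close to 0.04 over protein-coding genes of that level. The 12 members with a mean of 1 to 5 FPKM had a median of 0.39, against 0.06 over the protein-coding genes there, and 4 of them had a plain ratio of 2 or more, which 1.15% of those genes reached. Of the 20 members under 1 FPKM in both libraries, 11 were higher, 8 lower, and Igll1, a surrogate light chain gene of precursor B cells, was listed at 0 in both.

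**Figure D2:**
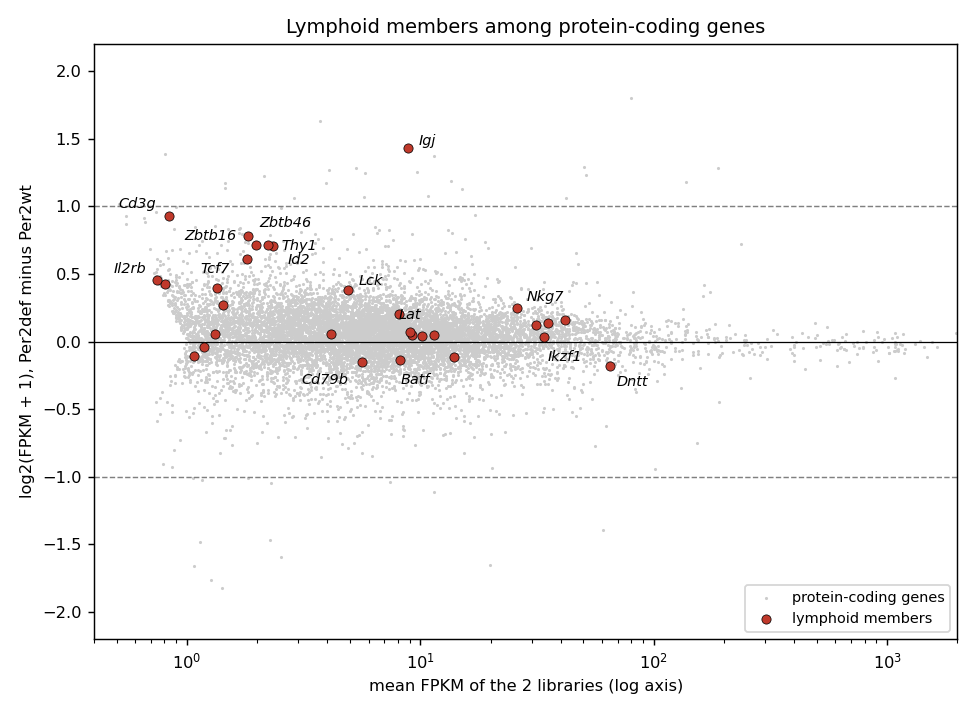
Difference in log2(FPKM + 1), Per2def minus Per2wt, against the mean FPKM of both libraries (log axis), for protein-coding genes at 1 FPKM or more (grey) and the 30 measured lymphoid members (red). Dashed lines mark 2-fold, 5 genes lie beyond the vertical range and 1 beyond the horizontal range, and Igj is the member above the upper line, with a group of low members between 0.6 and 0.95.

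Priming factors were present at similar levels in both libraries. Dntt, which encodes the terminal transferase that adds bases at antigen receptor joints and is an early mark of lymphoid priming, was the most abundant member (ENSMUSG00000025014.13, GRCm38 chromosome 19, 41029275 to 41059525). It stood at 60.6 FPKM in the library labelled Per2def and 68.7 FPKM in the library labelled Per2wt (log2 difference −0.18), with at least 3008 and 2727 estimated fragments. Its counting interval of the ratio, 0.837 to 0.929, was the one among measured members that lay below 1. Ikzf1, the gene of Ikaros (ENSMUSG00000018654.17, chromosome 11, 11685003 to 11772926), was at 34.1 FPKM in the library labelled Per2def and 33.4 FPKM in the library labelled Per2wt. The chromatin organiser gene Satb1 was at 11.6 and 11.3 FPKM and Foxp1, a forkhead factor gene needed in early B cells, at 10.3 and 9.98 FPKM, in the same order. The differences of Ikzf1, Satb1 and Foxp1 were 0.03, 0.04 and 0.04 and turned negative when libraries were scaled by the median of ratios.

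Other early genes differed by as little. The lymphotoxin gene Ltb was at 13.3 FPKM in the library labelled Per2def and 14.5 FPKM in the library labelled Per2wt (−0.11), and the surface antigen gene Cd52 at 44.0 and 39.3 FPKM (0.16). Ikzf2, the gene of Helios, was at 4.24 and 4.03 FPKM (0.06), and Foxo1, which drives Rag and Il7r expression in lymphocyte precursors, at 1.36 and 1.27 FPKM (0.05). Counting intervals of all these ratios held 1. Ikzf3, the gene of Aiolos, which marks later lymphocyte stages, stood apart from its relatives at 0.414 FPKM in the library labelled Per2def, about 41 fragments, and 0.0783 FPKM in the library labelled Per2wt, about 6 fragments. Its ratio was 5.29 with a counting interval of 2.31 to 15.7. Summed over the 9 genes, the level was 179.9 FPKM in the library labelled Per2def and 182 FPKM in the library labelled Per2wt.

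The E proteins, helix-loop-helix factors that drive lymphoid commitment, had slightly higher values in the library labelled Per2def under the deposited scaling. Tcf3, the gene of E2A, was at 32.6 FPKM in the library labelled Per2def and 29.9 FPKM in the library labelled Per2wt (0.12), and Tcf4, the gene of E2-2 and a factor of plasmacytoid dendritic cells, at 8.77 and 7.49 FPKM (0.20). Tcf12, the gene of HEB, was at 9.38 and 9.03 FPKM (0.05), a difference that turned negative by under 0.01 with median of ratios scaling. Counting intervals lay above 1 for Tcf3 (1.03 to 1.16) and Tcf4 (1.05 to 1.30) and held 1 for Tcf12.

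Id2, the inhibitor of E proteins that is required for NK and innate lymphoid cells, had the widest difference of this family on the log2(FPKM + 1) scale. It stood at 3.15 FPKM in the library labelled Per2def, about 96 fragments, and at 1.55 FPKM in the library labelled Per2wt, about 38 fragments (log2 difference 0.70, ratio 2.03, counting interval 1.37 to 3.02; ENSMUSG00000020644.9, chromosome 12, 25093799 to 25097140). Its relatives were near the limit of detection. Id1 was at 0.144 FPKM in the library labelled Per2def and 0.477 FPKM in the library labelled Per2wt, about 3 and 8 fragments, with an interval of 0.0512 to 1.25. Id3 was at 0.140 FPKM in the library labelled Per2def, about 4 fragments, and listed at 0 in the library labelled Per2wt.

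B lineage genes showed no shared direction. In the library labelled Per2def 3 of 10 genes were higher, 6 lower and 1 at 0 in both. Of the 3 at 1 FPKM or more 1 was higher and 2 lower, beside 62.0% of all genes higher at that level. Cd37, a tetraspanin gene expressed well beyond B cells, led with 36.9 FPKM in the library labelled Per2def and 33.4 FPKM in the library labelled Per2wt (0.14). Cd79b, a signalling chain of the B cell receptor, was at 5.29 and 6.00 FPKM (−0.15), and the adaptor gene Blnk at 1.00 and 1.15 FPKM (−0.10), both with counting intervals that held 1. Cd79a, the partner chain of Cd79b, was at 0.780 FPKM in the library labelled Per2def and 0.426 FPKM in the library labelled Per2wt, about 28 and 12 fragments, with an interval of 0.918 to 4.03.

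The recombinase genes Rag1 and Rag2, which cut antigen receptor genes, were low and level. Rag1 was at 0.385 FPKM in the library labelled Per2def and 0.411 FPKM in the library labelled Per2wt, and Rag2 at 0.649 and 0.683 FPKM, from about 50 to 70 fragments each, and both share exon positions with B230118H07Rik. The commitment factors were close to absent: Ebf1 was at 0.112 FPKM in the library labelled Per2def and 0.0435 FPKM in the library labelled Per2wt, and Pax5 was listed at 0 in the library labelled Per2def and stood at 0.0434 FPKM, about 8 fragments, in the library labelled Per2wt. The counting interval of the Pax5 ratio ended at 0.468, below 1, and Pax5 shares exon positions with 5730488B01Rik and Gm12462. Vpreb1, a surrogate light chain gene, had about 4 fragments in both. Of the B cell markers outside the members 4 reached 1 FPKM, with 3 higher and 1 lower in the library labelled Per2def. Of the 3, Fcer2a reached it only there, at 1.20 FPKM against 0.954 FPKM in the library labelled Per2wt. Its direction follows from the limit. The widest was Ly6d, at 4.25 FPKM in the library labelled Per2def and 1.52 FPKM in the library labelled Per2wt (counting interval 1.65 to 4.90), which is also a dendritic cell marker, and the most abundant was Cd72, at 8.59 and 9.47 FPKM in the same order. Ms4a1, the gene of CD20, was at 0.0378 FPKM in the library labelled Per2def and listed at 0 in the library labelled Per2wt.

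T lineage genes mostly shared a direction, at low levels. In the library labelled Per2def 11 of 12 genes were higher, 4 of them under 1 FPKM in both libraries. Of the 8 at 1 FPKM or more 7 were higher, beside 62.0% of all genes at that level, with a median difference of 0.40. Cd3g and Cd4 reached that level only in the library labelled Per2def, so their direction follows from the limit. Without them 5 of 6 were higher, with a median of 0.32, beside 61.6% of genes at 1 FPKM or more in both libraries. Lat, an adaptor of T cell receptor signalling that was the most abundant, hardly differed, at 9.26 FPKM in the library labelled Per2def and 8.75 FPKM in the library labelled Per2wt (0.07). Lck, the kinase that starts that signalling, was at 5.65 and 4.12 FPKM (0.38, counting interval 1.14 to 1.67). Cd8b1 was the exception in direction, at 1.16 FPKM in the library labelled Per2def and 1.22 FPKM in the library labelled Per2wt (−0.04), and Cd8a was at 0.218 and 0.180 FPKM.

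The 3 CD3 chains, which couple the T cell receptor to signalling, all had higher values in the library labelled Per2def. Cd3g (ENSMUSG00000002033.14, chromosome 9, 44969572 to 44980431) was at 1.41 FPKM there, about 33 fragments, and at 0.266 FPKM in the library labelled Per2wt, about 5 fragments. The ratio was 5.31, with a counting interval of 2.05 to 17.3 (log2 difference 0.93). Cd3d was at 0.758 FPKM in the library labelled Per2def and 0.375 FPKM in the library labelled Per2wt, about 31 and 12 fragments (interval 1.03 to 4.41). Cd3e was at 0.569 and 0.389 FPKM, about 20 and 11 fragments, and its interval of 0.664 to 3.36 held 1. The coreceptor gene Cd4 was at 1.07 FPKM in the library labelled Per2def and 0.542 FPKM in the library labelled Per2wt (0.42, interval 1.31 to 2.96).

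Among the T lineage transcription factors, Tcf7, the gene of TCF-1 that acts downstream of Notch in thymic progenitors, was at 2.40 FPKM in the library labelled Per2def and 1.22 FPKM in the library labelled Per2wt (0.61, interval 1.36 to 2.85). Gata3, needed for T and innate lymphoid cells, was at 1.65 and 1.20 FPKM (0.27, interval 1.05 to 1.84), although exons of 9230102O04Rik overlap it. Bcl11b, which locks in T commitment, was at 0.255 FPKM in the library labelled Per2def and 0.0870 FPKM in the library labelled Per2wt, with an interval of 0.962 to 9.42. Thy1, a surface glycoprotein gene of T cells that some stem and progenitor cells also express, was at 3.02 FPKM in the library labelled Per2def and 1.45 FPKM in the library labelled Per2wt, about 132 and 51 fragments (0.72, ratio 2.08, interval 1.49 to 2.92; ENSMUSG00000032011.5, chromosome 9, 44043384 to 44048579).

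T cell markers outside the members were low as well. Of 13 found, 10 were higher and 3 lower in the library labelled Per2def, and their sum was 38.4 FPKM in the library labelled Per2def and 42.8 FPKM in the library labelled Per2wt, most of it from Cd27, a gene that progenitors also express, at 31.0 and 37.3 FPKM. Without Cd27 and Il7r, a choice made after the values were seen, 9 of 11 were higher, the sums were 5.24 FPKM in the library labelled Per2def and 3.65 FPKM in the library labelled Per2wt, and no gene passed 0.917 FPKM. Cd40lg was at 0.134 FPKM in the library labelled Per2def and listed at 0 in the library labelled Per2wt. In bulk RNA, fewer cells of a type and less RNA per cell cannot be told apart, and the part of T cells in these values was not tested.

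**Figure D3:**
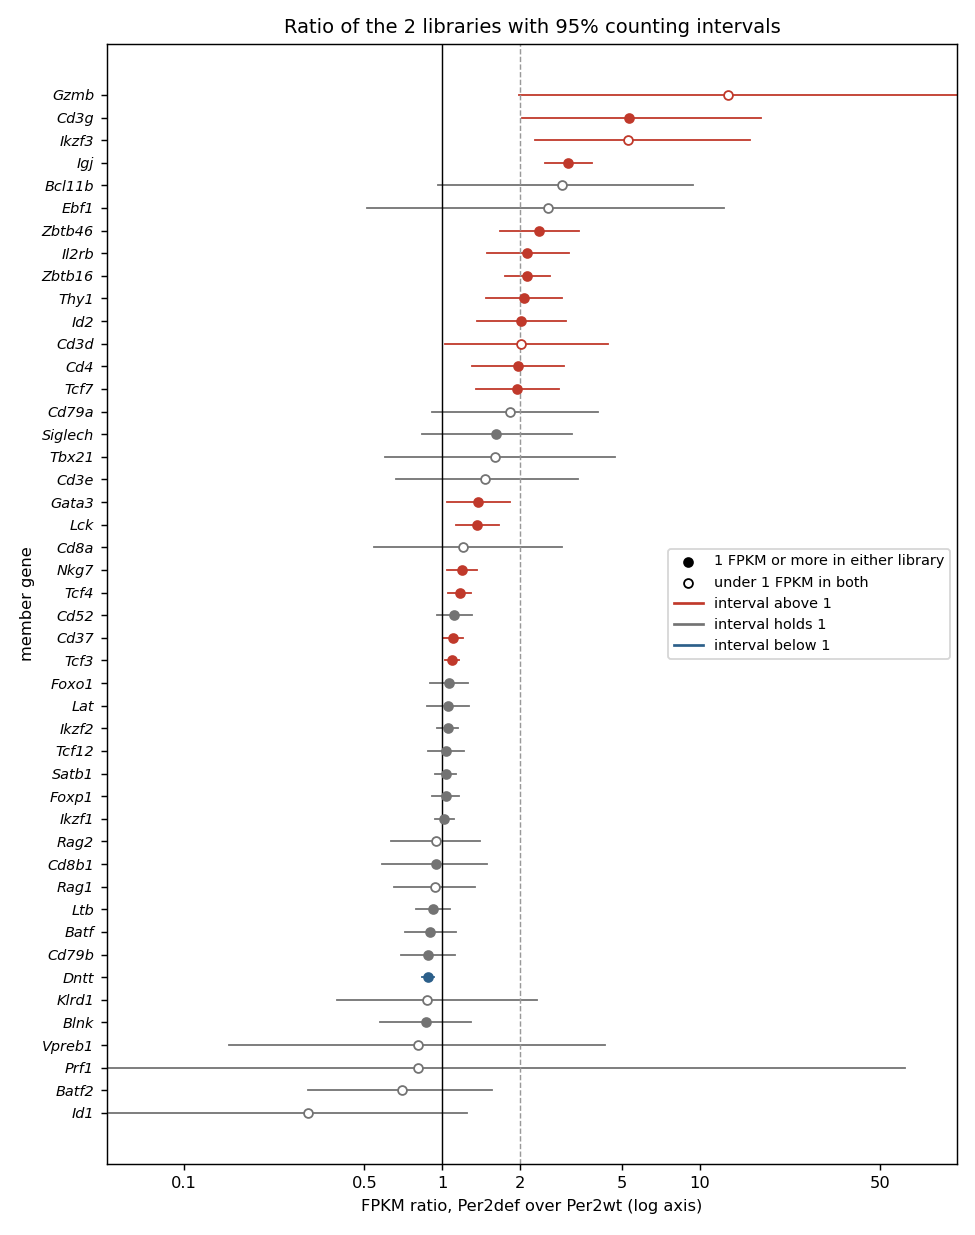
FPKM ratio of the library labelled Per2def over the library labelled Per2wt (log axis) for the members above 0 in both, with 95% counting intervals, filled where the gene reached 1 FPKM in either library. Intervals above 1 are red, below 1 blue, and the interval of Gzmb runs beyond the axis, as do those of Prf1 and Id1 at the low end. The priming factors other than Ikzf3, and Batf, sit around 1, whereas Igj, Cd3g, Zbtb46, Il2rb, Zbtb16, Thy1 and Id2 lie above 2.

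In the library labelled Per2def 5 of the 7 NK and innate lymphoid genes were higher and 2 lower. All 3 at 1 FPKM or more were higher, beside 62.0% of all genes at that level. Zbtb16 and Nkg7 reached 1 FPKM in both libraries, and Il2rb in the library labelled Per2def alone, so its direction follows from the limit. Zbtb16, the gene of PLZF, a factor of innate lymphoid precursors and NKT cells, was at 2.70 FPKM in the library labelled Per2def and 1.26 FPKM in the library labelled Per2wt, about 378 and 141 fragments (0.71, ratio 2.15, interval 1.76 to 2.62; ENSMUSG00000066687.5, chromosome 9, 48654297 to 48836222). Il2rb, a receptor chain for interleukins 2 and 15, was at 1.01 and 0.472 FPKM (0.45, ratio 2.15, interval 1.49 to 3.11). Nkg7, a granule membrane protein gene, was far more abundant, at 28.4 FPKM in the library labelled Per2def and 23.7 FPKM in the library labelled Per2wt (0.25, interval 1.05 to 1.37).

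The effector genes of NK cells stayed under 1 FPKM in both libraries and went different ways. Gzmb, the gene of granzyme B, was at 0.463 FPKM in the library labelled Per2def, about 16 fragments, and 0.0359 FPKM in the library labelled Per2wt, about 1 fragment, a ratio of 12.9 with a counting interval of 1.99 to 536. Prf1, the gene of perforin, had about 1 fragment in either library. Klrd1, the gene of CD94, was at 0.635 FPKM in the library labelled Per2def and 0.723 FPKM in the library labelled Per2wt, and Tbx21, the gene of T-bet, at 0.209 and 0.130 FPKM. Of 18 NK and innate lymphoid markers outside the members, 11 were higher and 6 lower, with sums of 10.3 FPKM in the library labelled Per2def and 8.08 FPKM in the library labelled Per2wt. Areg was listed at 0 in both. Ncr1, which defines NK cells, was at 0.0557 FPKM in the library labelled Per2def and 0.138 FPKM in the library labelled Per2wt.

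Igj was the member that differed most on the log2(FPKM + 1) scale, while Gzmb, Cd3g and Ikzf3 had wider plain ratios from fewer fragments. It encodes the joining chain that links immunoglobulin units and carries the current name Jchain (ENSMUSG00000067149.6, chromosome 5, 88519809 to 88527891). It stood at 13.3 FPKM in the library labelled Per2def and 4.32 FPKM in the library labelled Per2wt, about 452 and 117 fragments, a ratio of 3.08 with a counting interval of 2.51 to 3.82 (log2 difference 1.43). It ranked 4 among 10312 protein-coding genes by log2 difference, above Per2 at rank 10.

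Plasma cell markers outside the members did not share a direction. Of 9 found, 6 were higher and 3 lower in the library labelled Per2def, and their sums were 35.5 FPKM in the library labelled Per2def and 36.0 FPKM in the library labelled Per2wt. Mzb1, a chaperone gene of B and plasma cells, was at 1.30 and 0.434 FPKM, Eaf2 at 2.13 and 0.875 FPKM, and Tnfrsf17, the gene of BCMA, at 0.404 FPKM and listed at 0, in the same order. The syndecan gene Sdc1 was lower, at 2.10 FPKM in the library labelled Per2def and 3.56 FPKM in the library labelled Per2wt, and so was Xbp1, at 11.2 and 12.5 FPKM. The part of plasma cells in the Igj value was not tested.

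Both dendritic cell members had higher values in the library labelled Per2def. Zbtb46, a factor of conventional dendritic cells, was at 2.57 FPKM in the library labelled Per2def and 1.09 FPKM in the library labelled Per2wt (0.78, ratio 2.37, counting interval 1.67 to 3.39; ENSMUSG00000027583.13, chromosome 2, 181387762 to 181459426). Siglech, a surface lectin gene of plasmacytoid dendritic cells, was at 1.66 and 1.02 FPKM (0.40), with an interval of 0.833 to 3.20. Of 17 dendritic markers outside the members 11 were higher and 6 lower, with sums of 152 FPKM in the library labelled Per2def and 130 FPKM in the library labelled Per2wt. Of the 8 at 1 FPKM or more 6 were higher and 2 lower, beside 62.0% of all genes higher. Counting intervals lay above 1 for 6 and below 1 for none, beside 22.8% and 10.1% of protein-coding genes. With median of ratios scaling 4 lay above 1, beside 15.3% of genes, and 1 below. Cd74, the invariant chain gene, was at 17.0 FPKM in the library labelled Per2def and 9.16 FPKM in the library labelled Per2wt. Ly6d was at 4.25 and 1.52 FPKM in the same order. Bst2 was lower, at 36.5 FPKM in the library labelled Per2def and 40.2 FPKM in the library labelled Per2wt. Its interval of 0.808 to 1.02 held 1. Clec9a and Xcr1, which define a conventional dendritic subset, were at 0.141 and 0.913 FPKM in the library labelled Per2def and at 0.207 and 0.932 FPKM in the library labelled Per2wt. Their part in the Zbtb46 value was not tested.

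**Figure D4:**
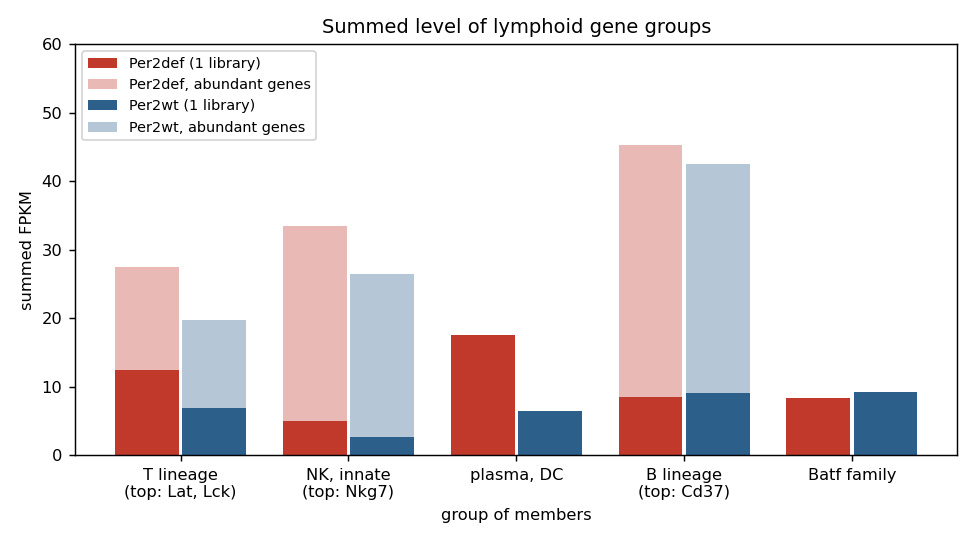
Summed FPKM of member groups in the library labelled Per2def (red, left) and the library labelled Per2wt (blue, right), 1 library each, with the abundant Lat, Lck, Nkg7 and Cd37, chosen after the values were seen, as the pale upper part of each bar. Whole bars reach 27.4 and 19.8 for the T lineage, 33.4 and 26.4 for NK and innate genes, 17.6 and 6.43 for plasma and dendritic genes, 45.3 and 42.5 for the B lineage and 8.36 and 9.21 for the Batf family.

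The summed level of the T, NK and B groups came mostly from the abundant Lat and Lck, Nkg7 and Cd37. Without Lat and Lck the T lineage sum was 12.5 FPKM in the library labelled Per2def and 6.93 FPKM in the library labelled Per2wt, and without Nkg7 the NK and innate sum was 5.04 and 2.64 FPKM in the same order. The B lineage sum was higher in the library labelled Per2def with Cd37 and lower without it, at 8.47 FPKM in the library labelled Per2def and 9.07 FPKM in the library labelled Per2wt.

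Batf itself was expressed and differed little. It stood at 7.76 FPKM in the library labelled Per2def, about 167 fragments, and at 8.65 FPKM in the library labelled Per2wt, about 148 fragments (log2 difference −0.14; ENSMUSG00000034266.6, chromosome 12, 85686669 to 85709087). The ratio of 0.898 had a counting interval of 0.718 to 1.13, so a difference between these libraries was not detectable at this depth. Batf2 was at 0.391 FPKM in the library labelled Per2def and 0.560 FPKM in the library labelled Per2wt, about 13 and 15 fragments, with an interval of 0.303 to 1.56. Batf3, a factor of conventional dendritic cells, was at 0.207 FPKM in the library labelled Per2def, about 4 fragments, and listed at 0 in the library labelled Per2wt.

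The genes around Batf went both ways. Of 17 measured partners, inducers and DNA damage genes, 7 were higher in the library labelled Per2def, Per2 itself among them, and 10 lower. Their median was −0.05, and 62.0% of all genes at 1 FPKM or more were higher. With median of ratios scaling 5 were higher and 12 lower, beside 50.8% of all genes higher. Jun, which pairs with Batf, was at 36.4 FPKM in the library labelled Per2def and 52.6 FPKM in the library labelled Per2wt (−0.52), and its relatives Junb and Jund were at −0.19 and −0.20. Fos was at 47.5 and 58.8 FPKM (−0.30), and the p53 gene Trp53 at 59.4 and 56.4 FPKM (0.07), in the same order. Csf3r, the receptor for G-CSF, was at 14.8 and 14.3 FPKM and Stat3 at 14.5 and 13.7 FPKM. Gadd45g was at 1.56 FPKM in the library labelled Per2def and 0.795 FPKM in the library labelled Per2wt (0.51). It is among the 7 counted as higher but reached 1 FPKM only in the library labelled Per2def, so its direction follows from the limit. Cdkn2a, the gene of p16, was listed at 0 in both.

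Lymphoid commitment genes outside the members lay closer to the rest of the genome, though this list was not matched to the members for level. Of 48 genes 32 were measured, 22 of them higher and 10 lower, with a median of 0.07 and none past 2-fold. Among all genes at 1 FPKM or more 62.0% were higher. With median of ratios scaling 17 were higher and 15 lower, beside 50.8% of all genes higher. Ets1, needed for NK and T cells, was at 4.01 FPKM in the library labelled Per2def and 2.48 FPKM in the library labelled Per2wt (0.53), Klf13 at 8.58 and 6.72 FPKM (0.31), Il2rg, the common cytokine receptor chain, at 17.8 and 14.4 FPKM (0.28) and Gfi1 at 4.53 and 3.56 FPKM (0.28). Flt3, the receptor gene of lymphoid-primed progenitors, was at 51.4 and 48.8 FPKM (0.07), Notch1 at 8.84 and 8.93 FPKM (−0.01) and Il7r, the receptor of early lymphocytes, at 2.11 and 1.79 FPKM (0.16).

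Markers of other blood cells differed beside these genes. In the library labelled Per2def 15 of 16 neutrophil genes were higher, with sums of 1027 FPKM in the library labelled Per2def and 535 FPKM in the library labelled Per2wt. Erythroid genes split 7 higher and 6 lower, with sums of 769 and 814 FPKM, and of 7 mast cell and basophil genes 4 were higher, 2 lower and Cma1 was listed at 0 in both, with sums of 195 and 205 FPKM, in the same order. The part of these other blood cells in the lymphoid values was not tested.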

How the data were processed

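Groups follow the genotype label of each sample. The deposited values are FPKM per gene, per the file headers. The submitters' processing notes name Cufflinks, TopHat, Bowtie2, CASAVA 1.8 and the builds mm10 and GRCm38. The strand setting, annotation and other versions were not given in the sources used here, so overlapping genes cannot be told apart (15 members share exon positions with another gene). Of 24487 rows, 9 flagged for too much data and 27 whose symbols had become dates were left out. Rows sharing a symbol were summed. Gene positions come from GENCODE M21 (GRCm38).

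Fragments were estimated from genes with 1 RefSeq-linked transcript. The value of 1 fragment and a length offset of 200 bases were chosen so that low values were nearest to whole fragments. This put 57.4% of 1108 genes in the library labelled Per2def and 59.2% of 1116 genes in the library labelled Per2wt, all between 0.5 and 4.5 fragments, within 0.05 of a whole number, where an even spread gives 10.0%. For the 15 members with several transcripts the shortest was used, which widens the intervals. The procedure was tested on simulated data. Python 3.11.15, pandas 2.3.3 and SciPy 1.17.1 were used.

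A gene counted as measured when at least 1 library had 1 FPKM or more, and 2-fold means a difference of 1 on the log2(FPKM + 1) scale. All measured members are named, with lineage-defining genes below that level, the widest differences of each pathway list and leading or absent markers. Il7r, Flt3, Notch1, Csf3r, Stat3, Trp53, Junb, Jund, Ncr1, Ms4a1, Clec9a, Xcr1, Mzb1, Tnfrsf17, Ly6d, Cd74, Slamf1, Cd48, Hlf, Gata2 and Id1 fall outside that rule or were singled out after their values were seen, and 1 marker gene is not reported here. The members and lists were chosen with earlier results of these data known. Alternatives were pseudocounts, filters, scalings, row choice and fold thresholds.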

Additional observations from a re-analysis of the deposited data

How the results depend on the processing

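The 1 member past 2-fold, Igj, kept its sign, which these mild scalings could hardly have changed. Of 99 alternative values of the main measures 84 stayed close to the reported ones (within 0.1 on the log2 scale, or 1.5 times for counts). Each member had 1 row, so the choice of row could change nothing. The number of members counted was 50 with no filter and 16 at 5 FPKM, of which 12 were higher in the library labelled Per2def. Members at least 2-fold higher numbered 5 with a pseudocount of 0.1 FPKM, 2 with 0.5 FPKM, 7 at 1.5-fold, 0 at 4-fold and 7 by plain ratio. The T lineage median was 0.66 and 0.50 with pseudocounts of 0.1 and 0.5 FPKM and 0.23 with the filter at 5 FPKM. For NK and innate genes the medians were 0.96 and 0.64 with those pseudocounts, and 0.25 both with no filter and with the filter at 5 FPKM, where 1 gene remained. Smaller pseudocounts widen differences of low genes by construction. Of 216 alternative values for 29 single members, 211 kept their sign. Pseudocounts, filters and row choice cannot change the sign of a single member, so this count tests the scalings alone. The exceptions were Ikzf1 under the median of ratios (−0.02) and upper quartile (0.00 after rounding) and Satb1, Foxp1 and Tcf12 under the median of ratios. That scaling multiplied the library labelled Per2def by 0.963 (−0.05 on the log2 FPKM scale, less on log2(FPKM + 1) for low genes), and the priming factor median became −0.01, against 0.04 as deposited. No paired analysis was possible because each genotype has 1 library, and leaving out a library leaves no comparison.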

Other observations

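Of the 50 lymphoid members, 5 lie within 4.79 Mb of chromosome 9, between Thy1 and Zbtb16 (44043384 to 48836222, GRCm38): Thy1, Cd3d, Cd3e, Cd3g and Zbtb16. The library labelled Per2def had the higher value of each, and 3 of them are among the 7 members with a plain ratio of 2 or more. The 39 other protein-coding genes measured in that interval had a median difference of 0.05 (range −0.55 to 0.65), with 26 higher and 13 lower, and none reached a plain ratio of 2 in either direction. This interval was chosen after the values were seen.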
